A study of Rattus norvegicus with 7 samples.

Results

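The miRNAs described here are those of the families mir-128, mir-129, mir-132, mir-137, mir-138 and mir-212, which are linked to neuronal maturation and to neuronal activity. They were found by their gene symbols, and 9 loci matched among the 571 features annotated as miRNA and the 5491 features in all. The loci were Mir128-1, Mir128-2, Mir129-1, Mir129-2, Mir132, Mir137, Mir138-1, Mir138-2 and Mir212, and all 9 passed the filter of a mean of at least 10 FPKM, as did all other miRNA features. The group was proposed with levels of these data in view, so the levels are given as a description. Small RNA was sequenced from the retina of untreated Wistar WU rats at 7 ages, namely P1, P3, P5 and P7 in the first week and P10, P15 and P21 thereafter, where P stands for the postnatal day. The animals lived under a 12:12 light and dark cycle, and no mutant or treated group was included. For each age 3 RNA samples from retinas were pooled into 1, so the spread between animals could not be calculated and no test between ages was made.

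A miRNA is a short RNA that pairs, mainly through a stretch near its 5′ end called the seed, with messenger RNAs and lowers their translation or stability. miR-132 and miR-212 are made from a common primary transcript whose production is driven by the transcription factor CREB in active neurons, and miR-132 is known for promoting the growth of dendrites. miR-128, miR-129, miR-137 and miR-138 are enriched in the nervous system, where miR-138 limits the size of dendritic spines, miR-129 represses a potassium channel, miR-128 lowers neuronal excitability and miR-137 takes part in the maturation of neurons. The eyelids of rats open around the end of the second postnatal week, between the P10 and P15 collections, and patterned light then reaches the retina.

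All 9 loci had an entry in the RefSeq annotation of the GRCr8 assembly, with 15 mature sequences among them. The mature strands below are shown because they tell which loci can be separated by their reads. They are written 5′ to 3′, and the capitals mark the seed, bases 2 to 8. The first pair are the 3p strands of the clustered loci on chromosome 10, followed by the main strands of the other families and by the strands that differ between paired loci.
rno-miR-132-3p: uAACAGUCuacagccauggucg
rno-miR-212-3p: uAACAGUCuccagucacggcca
rno-miR-137-3p: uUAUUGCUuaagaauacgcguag
rno-miR-129-5p: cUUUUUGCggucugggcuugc
rno-miR-138-5p: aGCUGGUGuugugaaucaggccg
rno-miR-128-3p: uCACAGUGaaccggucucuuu
rno-miR-129-1-3p: aAGCCCUUaccccaaaaag
rno-miR-129-2-3p: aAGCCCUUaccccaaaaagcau
rno-miR-138-1-3p: cGGCUACUucacaacaccaggg
rno-miR-138-2-3p: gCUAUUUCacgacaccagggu
rno-miR-128-1-5p: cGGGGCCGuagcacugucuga
rno-miR-128-2-5p: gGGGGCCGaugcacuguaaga

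miR-132-3p and miR-212-3p shared the seed AACAGUC, which no other mature rat sequence in the RefSeq table carried, and had the same base at 17 of 22 positions, with the first difference at position 10. Reads of these strands can therefore be told apart. miR-129-5p, miR-138-5p and miR-128-3p each came from a pair of loci with an identical mature sequence, so reads of these strands cannot be assigned to 1 locus. The 3p strands of Mir129-1 and Mir129-2 were identical over all 19 positions that both have. The 5p strands of Mir128-1 and Mir128-2 had the same base at 16 of 21 positions. The 3p strands of Mir138-1 and Mir138-2 had the same base at 5 of 21 positions when compared from their first base without a shift. Shifted against each other, these printed 3p strands match over most of their length, so the low count does not mean unlike sequences. The division of reads between these paired loci is uncertain, and their sums are given beside the single loci.

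In the Rnor_6.0 build of the deposited values, Mir212 lay on chromosome 10 from 62014702 to 62014812 and Mir132 on the same plus strand from 62014995 to 62015095, so that 182 bases separated the loci. Mir137 lay on chromosome 2 from 221658106 to 221658207. Mir129-1 was on chromosome 4 from 56301726 to 56301797 and Mir129-2 on chromosome 3 from 83137297 to 83137393. Mir138-1 was on chromosome 8 from 131731726 to 131731824 and Mir138-2 on chromosome 19 from 11149748 to 11149829. Mir128-1 was on chromosome 13 from 44916534 to 44916615 and Mir128-2 on chromosome 8 from 120378945 to 120379028. In the RefSeq list Mir128-1 fell within R3hdm1, Mir128-2 within Arpp21 and Mir138-2 within Slc12a3. Mir137, Mir129-1 and Mir138-1 fell within uncharacterised genes, and Mir129-2, Mir132 and Mir212 within none. The feature used for Mir138-2 was 123 bases long, longer than its gene of 82 bases, which touches its level per length.

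The deposited values were FPKM, a density of sequenced fragments that takes account of feature length and library size. Their low values came in whole steps of what 1 alignment is worth, from which between 296075 alignments at P1 and 1354835 at P21 were estimated per age. From P3 to P15 the values were sums over 2 read sets, and at P21 over 4, none of which carries a label. Within an age these sets differed by more than counting allows. Over the miRNAs with at least 10 alignments in each set, the SD of the log2 ratio between them was 0.52 at P7 and 1.37 at P3, against 0.34 to 0.39 expected from counting. Each 95% interval below therefore covers counting error and this spread, and leaves out variation between animals. For P1 and P21 the median spread of the other ages was used. The variance between sets was divided by the number of sets, which was 1 at P1 and 4 at P21. The intervals that involve P21 thus rest on an assumed even averaging over 4 sets, whose steps ran from 0.28 to 1.10 P1 alignments. The share of miRNAs among these alignments was 39.2% at P3 and 58.4% to 74.5% elsewhere. Of the 63 levels of the 9 loci, 51 could be read out as whole alignments, and the fewest behind any level was 10.

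The label of the tissue was checked against marker miRNAs. The neuronal and photoreceptor markers Mir124-1, Mir124-2, Mir124-3, Mir183 and Mir96 together held 9.42% of the miRNA signal at P1 and 50.4% at P21. This share came mainly from the Mir124 loci, with 47576, 47917 and 47450 mean alignments, against 10794 for Mir183 and 2434 for Mir96. Whether the same reads were counted at several Mir124 loci was not tested. Mir183 and Mir96 were highest at P10, at 733716 and 281916 FPKM, and had 448779 and 89063 FPKM at P21. Mir204 and Mir211 of the pigment epithelium held 2.31% to 5.85%. Markers of vessels held 0.246% to 1.32%, those of muscle at most 0.163% and those of blood at most 0.0483%, and no listed marker found in the values was at 0 at any age. The muscle share was uneven, at 0.163% at P3 and 0.0987% at P5 but at most 0.0163% at the other ages. Mir206 of muscle had 130765 FPKM at P3 and 72154 at P5, against 3428 at P1, on a mean of 21.1 alignments per age. Its part in the levels of the 9 loci was not tested. In RNA of whole retinas, fewer cells of a type and less RNA per cell cannot be told apart.

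From P1 to P21, 6 of the 9 loci were at least 2-fold higher, namely both mir-129 loci, both mir-138 loci, Mir132 and Mir137, and none was at least 2-fold lower. The same was found for 31.5% of all miRNA features in the upward and 32.9% in the downward direction. With the loci of 1 mature name summed, 4 members were at least 2-fold higher and none lower. The median log2 difference of the 9 loci was 2.83, against -0.05 over all 571 miRNA features. The intervals of these 6 loci lay above 0, as did those of 32.1% of the 346 miRNA features with at least 20 alignments on average, while 25.7% lay below 0 and no member did. Mir137 was the member nearest inside the limit at 2.47-fold, and Mir212, at 1.86-fold lower, and Mir128-2, at 1.54-fold higher, were the nearest outside it. Over the same ages the share of the neuronal and photoreceptor markers moved upward as given above. That of the pigment epithelium was 2.31% at P1 and 5.02% at P21, with Mir211 at a log2 difference of 6.80, and that of blood was 0.0483% and 0.0107%. The part of these markers in the differences was not tested.

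**Figure D1:**
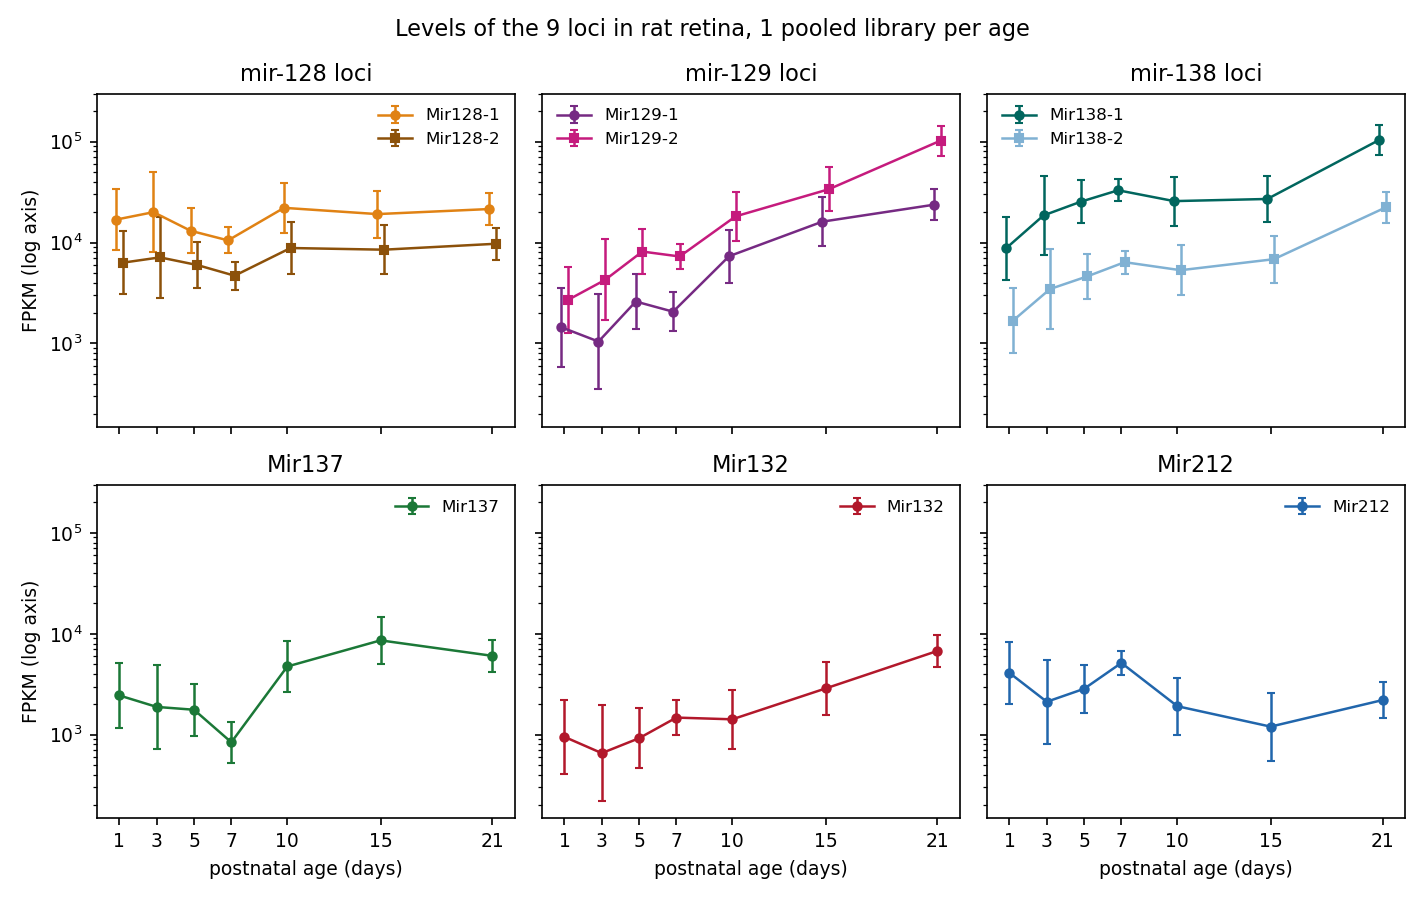
FPKM on a log axis against postnatal age in days for the 9 loci, with 1 pooled library per age; points are the deposited levels and bars the 95% intervals from counting and the spread between read sets. The mir-129 and mir-138 loci, Mir132 and Mir137 end higher than they begin, the mir-128 loci stay within 2.10-fold and Mir212 is highest at P7.

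Mir132 encodes the activity-driven miR-132. Its level was 951, 656, 922 and 1477 FPKM at P1, P3, P5 and P7, and 1420, 2871 and 6761 FPKM at P10, P15 and P21. The levels at P15 and P21 were both above all earlier ages, and the range over the series was 10.3-fold. These levels rested on 16, 11, 18, 41, 31 and 64 alignments from P1 to P15 and on an estimated 314 at P21, so the early levels were the least precise. Placed in order of level, the ages ran from P3 through P5, P1, P10, P7 and P15 to P21, and the step from P15 to P21 was the only one between neighbours whose interval excluded 0 in the deposited values. From P1 to P21 the log2 difference was 2.83 (95% interval 1.51 to 4.15), a 7.11-fold higher level at P21.

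Mir212 gives miR-212, which shares its seed with miR-132 as shown above. Its level was 4092, 2119, 2848 and 5141 FPKM at P1, P3, P5 and P7, and 1915, 1202 and 2202 FPKM at P10, P15 and P21. It was highest at P7 and lowest at P15, a range of 4.28-fold. No neighbours in the order of its levels differed beyond their interval, but the step from P7 to P10 did, with a log2 difference of -1.42 (95% interval -2.45 to -0.40). From P5 to P7 the log2 difference was 0.85 (95% interval -0.03 to 1.74) as deposited. Under each of the 3 other scalings its interval lay above 0, with differences of 0.92 to 1.33. From P1 to P21 the log2 difference was -0.89, with an interval from -2.08 to 0.29 that includes 0. With each library scaled to its miRNA total the difference was -1.52, with an interval from -2.70 to -0.33.

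The 2 loci lie next to each other, yet their levels moved apart. The ratio of Mir132 to Mir212 was 0.232, 0.310, 0.324 and 0.287 at P1, P3, P5 and P7. It was then 0.742 at P10, 2.39 at P15 and 3.07 at P21. Mir212 was thus the more abundant locus up to P10 and Mir132 the more abundant at P15 and P21, although the intervals of the ratio included equal levels at P3, P10 and P15. The log2 ratio was higher at P21 than at P1 by 3.72 (95% interval 1.95 to 5.50). Because both levels of a ratio come from the same library, scaling of a whole library does not touch it.

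**Figure D2:**
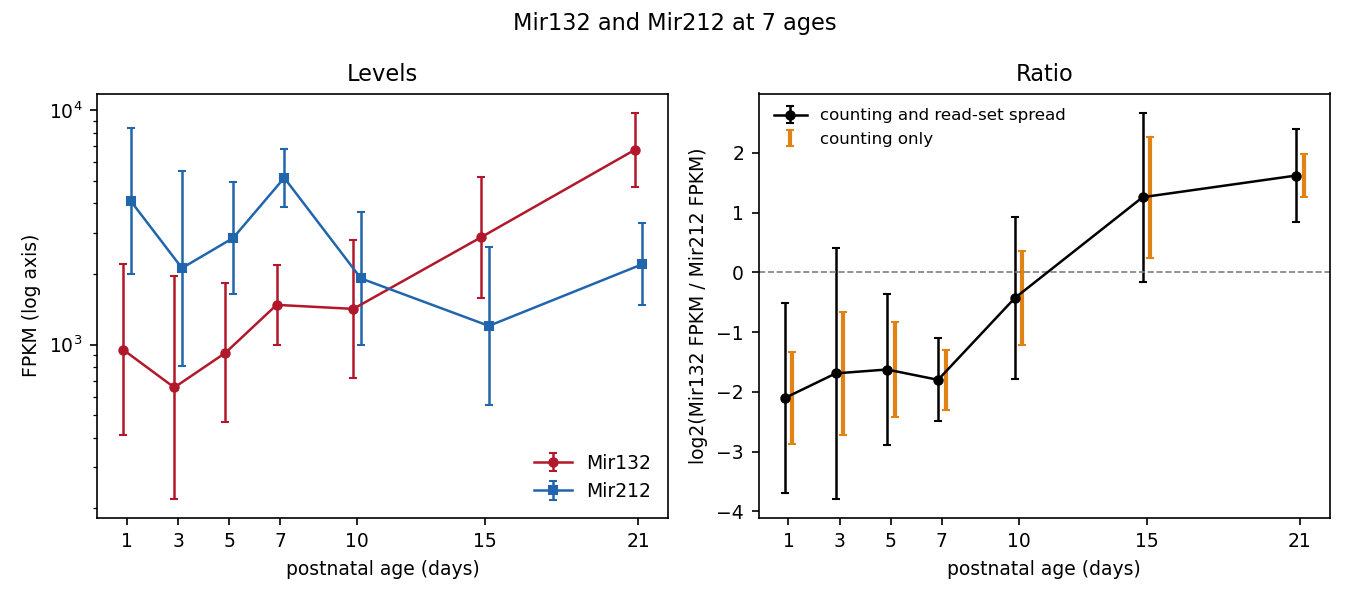
Left, FPKM of Mir132 and Mir212 on a log axis against postnatal age in days, with 95% intervals; right, the log2 of their ratio, with black bars for counting and the spread between read sets and orange bars for counting alone. The ratio lies below 0 on the log2 scale from P1 to P10 and above it at P15 and P21.

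Across eye opening, from P10 to P15, Mir132 and Mir129-1 were at least 2-fold higher, and no member was at least 2-fold lower. These 2 of 9 loci compare with 12.1% of all miRNA features that were at least 2-fold higher and 27.1% that were at least 2-fold lower. Among the 346 miRNA features with at least 20 alignments on average, the upward share was 6.94%. Mir132 stood just inside the limit at 2.02-fold, while Mir129-2 at 1.86-fold and Mir137 at 1.82-fold stood just outside. The median log2 difference was 0.36 for the 9 loci and -0.27 over all miRNA features. None of the 9 intervals excluded 0 for this step as deposited, and of the miRNA features with that many alignments and values at both ages 2.61% lay above and 9.28% below 0. With the libraries scaled to the miRNA total or by the median of ratios the intervals of both mir-129 loci did, and with TMM scaling those of Mir132 and Mir137 as well, against 4.35%, 4.64% and 7.83% of these features above 0. The share of the neuronal and photoreceptor markers was 40.7% at P10 and 46.4% at P15 and that of the pigment epithelium 3.79% and 5.85%. Within the former, the Mir124 loci were higher by 0.19 to 0.21 on the log2 scale, whereas Mir183 differed by -0.39 and Mir96 by -0.63. The share of the vessel markers was 0.558% and 0.963%, with Mir145, Mir126a and Mir143 at log2 differences of 0.90, 0.72 and 0.41. The part of all these markers in the differences was not tested.

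Mir132 had a log2 difference of 1.01 between P10 and P15, with a 95% interval from -0.29 to 2.32. With counting error alone the interval was 0.24 to 1.79, so the step exceeded counting error but not the spread between read sets. The P10 level was the sum of 1030.15 FPKM from 28 alignments and 390 FPKM from 3 alignments. At P15 the parts were 1763 FPKM from 58 alignments and 1108 FPKM from 6. Each part at P15 was thus larger than each part at P10, but the 1108 FPKM from 6 alignments exceeded the 1030.15 FPKM only within counting error. The sets also differed over the miRNAs as a whole. Their median log2 ratio, larger over smaller step, was -0.22 at P10 and 0.85 at P15. The parts are unlabelled sets of 1 pool and not replicates, and the share of other miRNAs with such an order was not calculated.

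Mir212 had a log2 difference of -0.67 over the same step, with an interval from -2.14 to 0.79, and counting error alone gave -1.70 to 0.35. Its parts were 1122 and 793 FPKM at P10 and 397 and 804 FPKM at P15. The parts of the 2 ages overlapped, and since no read set is labelled, none was tied between ages. For the ratio of Mir132 to Mir212, the log2 difference from P10 to P15 was 1.69 (95% interval -0.27 to 3.65), or 0.40 to 2.97 with counting error alone. In the deposited values the eye opening step by itself was therefore not separated from the spread between read sets for either locus or for their ratio, while the longer interval from P1 to P21 was for the ratio and for Mir132.

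From P15 to P21 Mir132 was again higher, by 1.24 on the log2 scale (95% interval 0.23 to 2.24), but the interval included 0 under each of the 3 other scalings, with differences of 0.75 to 0.99. Mir129-2, Mir138-1 and Mir138-2 were also at least 2-fold higher over this step, so 4 of 9 loci passed the limit upward and none downward, against 32.4% and 11.0% of all miRNA features. Under each of the 3 other scalings 3 loci passed upward, all but Mir132. Of all 571 miRNA features, 119 (20.8%) were then higher and 114 lower with scaling to the miRNA total, 25.2% and 14.9% by the median of ratios and 23.1% and 16.5% with TMM. The member median was 0.87 and that of all miRNA features 0.37. Mir132 at 2.36-fold was the nearest member inside the limit and Mir212 at 1.83-fold the nearest outside. At P15 and P21 both, 5 of the 9 loci were above all earlier ages, namely Mir129-1, Mir129-2, Mir132, Mir137 and Mir138-2, compared with 14.4% of all miRNA features. No locus was below all earlier ages at both, compared with 21.7%.

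**Figure D3:**
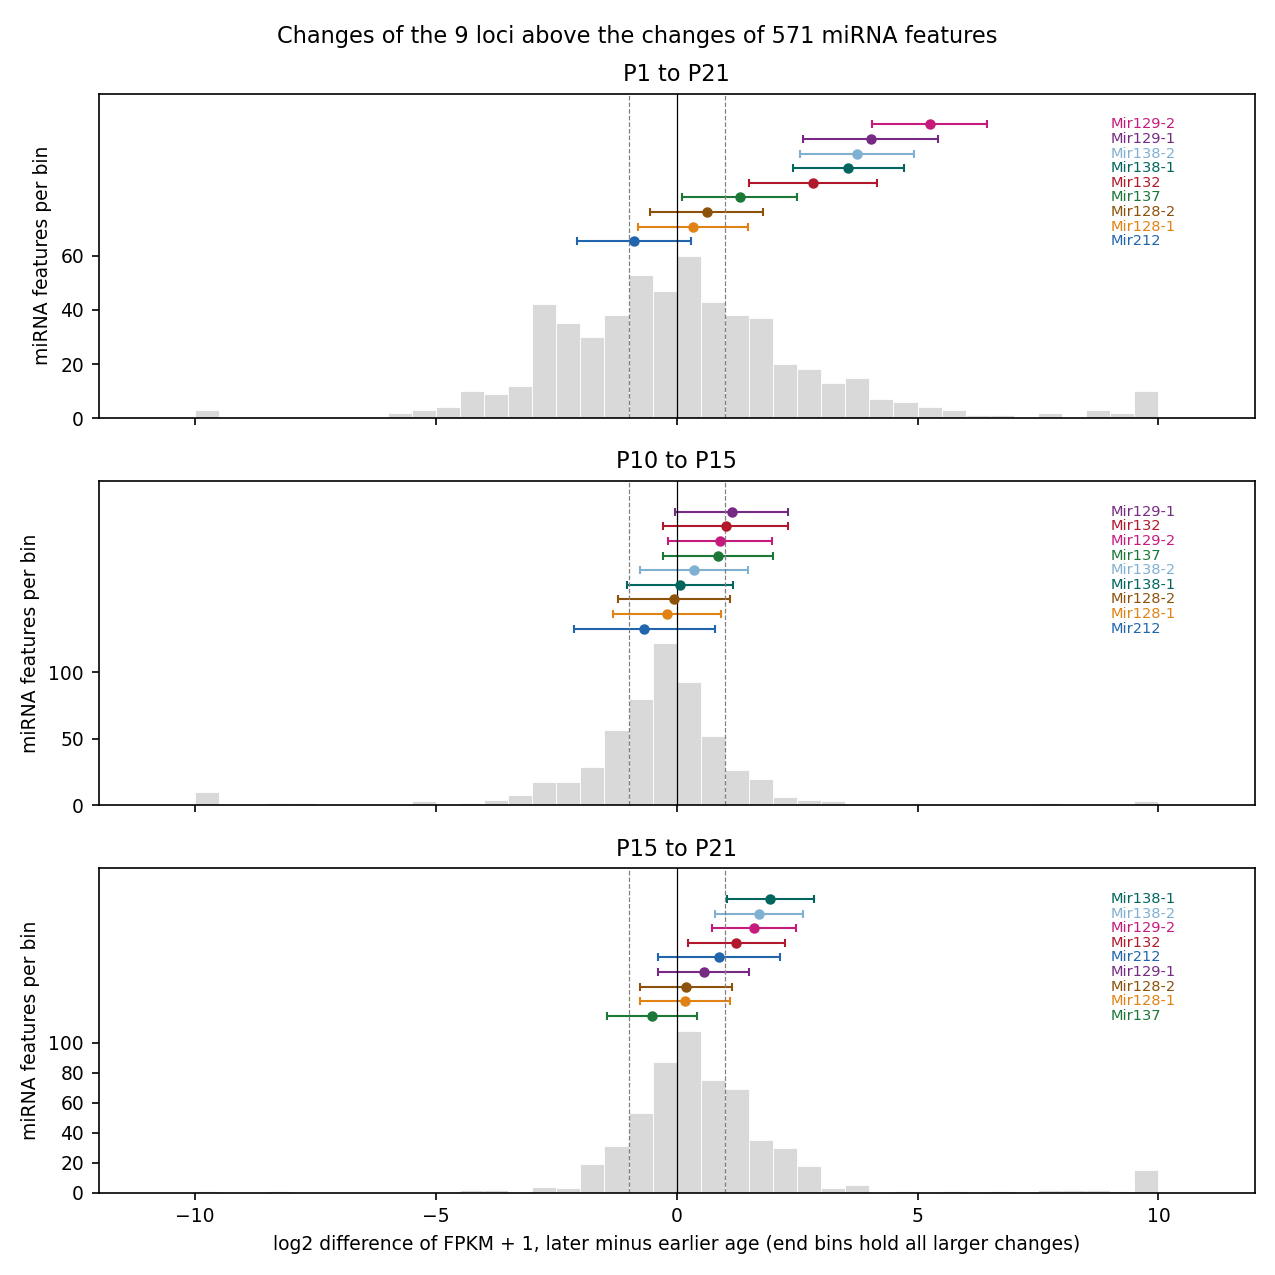
Log2 difference of FPKM + 1 between ages, with the 9 loci as points with 95% intervals above a histogram of all 571 miRNA features in bins of 0.5; dashed lines mark 2-fold. From P1 to P21 both mir-129 loci and both mir-138 loci lie far to the right at 3.56 to 5.25, whereas from P10 to P15 all 9 intervals cross 0.

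Mir137, a locus linked to the maturation of neurons, had 2446, 1884, 1766 and 841 FPKM at P1, P3, P5 and P7, and 4738, 8603 and 6041 FPKM at P10, P15 and P21. It was lowest at P7 and highest at P15, a 10.2-fold range, and the 3 late ages were all above the 4 early ones. The step from P7 to P10 was the largest among the members between consecutive ages, with a log2 difference of 2.49 (95% interval 1.40 to 3.58). From P10 to P15 the difference was 0.86 (95% interval -0.29 to 2.01). Each part of the P15 level, 4080 and 4523 FPKM, was above each part at P10, 2956 and 1783 FPKM. These parts are unlabelled read sets of 1 pool and not replicates, and the interval, which covers their spread, includes 0. From P15 to P21 the difference was -0.51 (95% interval -1.44 to 0.42). The P21 level was 2.47-fold that at P1, with an interval of 0.10 to 2.50 on the log2 scale that came close to 0 and that included 0, at -0.52 to 1.88, after scaling to the miRNA total.

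The mir-129 loci had the largest differences of the group from P1 to P21. Mir129-2 had 2695, 4264, 8147 and 7281 FPKM at P1, P3, P5 and P7, and 18184, 33767 and 102536 FPKM at P10, P15 and P21. Its 3 late ages were all above its 4 early ages, and its P1 to P21 log2 difference of 5.25 (95% interval 4.06 to 6.44), a 38.1-fold higher level, was rank 6 by size of rise among the 346 miRNA features with at least 20 alignments on average. The step from P7 to P10 was 1.32 (95% interval 0.42 to 2.22) and that from P15 to P21 was 1.60 (95% interval 0.73 to 2.47).

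Mir129-1, its paired locus, had 1450.5, 1045, 2606 and 2066 FPKM at P1, P3, P5 and P7, and 7323, 16116 and 23745 FPKM at P10, P15 and P21. The same order of early and late ages was seen, with a P1 to P21 difference of 4.03 (95% interval 2.63 to 5.43), or 16.4-fold. The early levels were among the thinnest of the group, with 11 alignments at P1 and 10 at P3. From P10 to P15 the difference was 1.14 (95% interval -0.04 to 2.32). The parts were 5305 and 2018 FPKM at P10 and 5056 and 11059.6 FPKM at P15, so 1 part at P15 lay above both at P10 and the other between them. The sum of both loci ranged from 4145 FPKM at P1 to 126281 at P21, a 30.5-fold range.

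The mir-138 loci, whose product limits dendritic spines, were lowest at P1 and highest at P21. Mir138-1 had 8806, 18581, 25419 and 32975 FPKM at P1, P3, P5 and P7, and 25752, 27044 and 104031 FPKM at P10, P15 and P21. No consecutive ages from P5 to P15 differed beyond their interval in the deposited values, and P21 stood above all other ages. The P15 to P21 difference was 1.94 (95% interval 1.04 to 2.85), and that from P1 to P21 was 3.56 (95% interval 2.41 to 4.71), or 11.8-fold. Mir138-1 had the highest mean FPKM of the 9 loci, at rank 65 of all miRNA features. This order depends on feature length, which was 72 bases for Mir138-1 and 91 for Mir129-2. By alignments Mir129-2 was below Mir138-1 from P1 to P7 and above it from P10 to P21, with an estimated 4097 against 2544 at P21.

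Mir138-2 had 1677, 3466, 4629 and 6393 FPKM at P1, P3, P5 and P7, and 5323, 6845 and 22319 FPKM at P10, P15 and P21. Its profile followed that of Mir138-1, with a P15 to P21 difference of 1.70 (95% interval 0.79 to 2.62) and a P1 to P21 difference of 3.73 (95% interval 2.55 to 4.92), or 13.3-fold. Across eye opening Mir138-1 differed by 0.07 (95% interval -1.03 to 1.17) and Mir138-2 by 0.36 (95% interval -0.76 to 1.49). The parts of Mir138-1 were 17608 and 8144 FPKM at P10 and 6003 and 21041 FPKM at P15. Those of Mir138-2 were 3657 and 1666 FPKM at P10 and 1754 and 5091 FPKM at P15, so the parts overlapped between the ages for both loci. The sum of both loci ranged from 10482.7 FPKM at P1 to 126350 at P21, a 12.1-fold range.

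The mir-128 loci varied least. Mir128-1, within R3hdm1, had 16895, 20015, 13076 and 10512.5 FPKM at P1, P3, P5 and P7, and 22090.3, 19154 and 21491 FPKM at P10, P15 and P21. Mir128-2, within Arpp21, had 6319, 7134, 5990.4 and 4697 FPKM at P1, P3, P5 and P7, and 8833, 8501 and 9730.15 FPKM at P10, P15 and P21. Both loci were lowest at P7, and their ranges were 2.10-fold and 2.07-fold. The P1 to P21 differences were 0.35 (95% interval -0.79 to 1.49) and 0.62 (95% interval -0.54 to 1.79), and with each library scaled to its miRNA total they became -0.28 and -0.0023, so no direction can be given. From P7 to P10 Mir128-1 was higher by 1.07 (95% interval 0.15 to 1.99) and Mir128-2 by 0.91 (95% interval -0.05 to 1.87). The sum of both loci ranged from 15209.7 FPKM at P7 to 31220.8 at P21, a 2.05-fold range.

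From P7 to P10, Mir137, Mir129-1, Mir129-2 and Mir128-1 were higher beyond their intervals and Mir212 was lower. Over this step 28.6% of the miRNA features with at least 20 alignments on average lay above 0 by their own intervals and 7.80% below. From P15 to P21 there were 4 members above 0 and none below, against 21.2% and 4.64%. Under all 3 other scalings Mir137 and Mir129-1 were beyond their intervals upward and Mir212 downward from P7 to P10, and Mir129-2, Mir138-1 and Mir138-2 upward from P15 to P21. Mir128-1 from P7 to P10 was not under any of them, and Mir129-2 was not under TMM scaling, which also placed both mir-138 loci beyond their intervals downward. With TMM scaling the background from P7 to P10 was 9.54% above 0 and 26.6% below. The median over all miRNA features from P7 to P10 was 0.09, and that of the 9 loci was 0.91.

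Markers of several cell types moved over the same step. The vessel markers held 0.246% of the miRNA signal at P7 and 0.558% at P10, with Mir126a at 7031 and 24362 FPKM, Mir145 at 12733 and 41643 FPKM and Mir143 at 1747 and 7854 FPKM. The blood markers held 0.0137% and 0.0315%, the pigment epithelium 3.24% and 3.79%, and the neuronal and photoreceptor markers 43.7% and 40.7%. Single markers moved further than these shares, since Mir96 of photoreceptors had 32654.5 and 281916 FPKM and Mir211 of the pigment epithelium 13414 and 89610 FPKM. The part of these markers in the differences of the 9 loci was not tested.

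The paired mir-128 and mir-138 loci kept similar ratios over the ages, as far as their reads can be assigned. Mir128-1 had 2.18 to 2.81 times the FPKM of Mir128-2, and Mir138-1 had 3.95 to 5.49 times that of Mir138-2. These ratios depend on feature length, which was 72 bases for Mir138-1 and 123 for Mir138-2. The alignments of the mir-138 loci were closer, at 78 and 44 at P1 and an estimated 2544 and 1617 at P21. The FPKM ratio of Mir129-2 to Mir129-1 ranged more widely, from 1.86 at P1 to 4.32 at P21. Here the features were 91 and 67 bases long, and the alignments stood further apart than the FPKM. They were 39 and 11 at P1 and an estimated 4097 and 497 at P21. From P15 to P21 the log2 of this FPKM ratio changed by 1.04 (95% interval -0.24 to 2.33). That was beyond counting error, 0.59 to 1.50, but not beyond the spread between read sets.

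**Figure D4:**
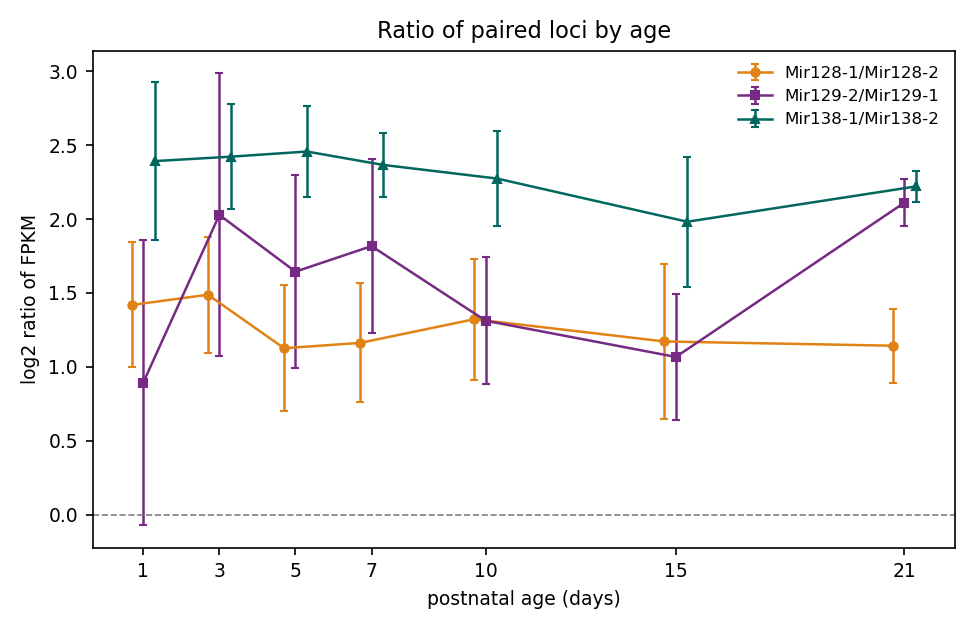
Log2 ratio of the FPKM of paired loci against postnatal age in days, with bars for 95% counting error alone. The mir-128 ratio lies between 1.13 and 1.49 and the mir-138 ratio between 1.98 and 2.46, while the mir-129 ratio moves between 0.89 and 2.11.

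Likeness of profiles was measured as the root mean square difference of log2(FPKM + 1) over the 7 ages, after subtraction of each feature's own mean, among the features with a mean of at least 100 FPKM. Of 567 other features, the nearest to Mir132 were Mir222 at 0.36, AC096003.1 at 0.40, AABR07013586.1 at 0.42, AABR07024593.2 at 0.43 and Mir6215 at 0.47. Among the members, Mir138-2 was the nearest to Mir132, at rank 10 and 0.54, and Mir212 stood at rank 287 with 1.43. Nearest to Mir137 was Mir218-2 at 0.38, and nearest to Mir212 was AABR07050212.1 at 0.27. The summed mir-128 loci were nearest to Mir342 at 0.031, the summed mir-129 loci to rno-mir-3556b-1 at 0.24 and the summed mir-138 loci to AABR07012575.1 at 0.19.

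Mir222 had 1487, 881, 1222 and 1161.5 FPKM at P1, P3, P5 and P7, and 2482, 2944 and 7232 FPKM at P10, P15 and P21, and so shared with Mir132 the lowest level at P3 and the highest at P21. Mir342 had 20703 FPKM at P1, 13261 at P7, 25821.5 at P10 and 26931 at P21, the same course as the summed mir-128 loci, which had 23213, 15209.7, 30923 and 31221 FPKM at these ages. These profiles rest on 7 libraries that all features share.

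Other miRNAs linked to neurons were taken as a list, of which 22 of 27 symbols were found. From P1 to P21, 10 were at least 2-fold higher and 1, Mir153 at -2.35, was lower, against 31.5% and 32.9% of all miRNA features. Their median was 0.95 on the log2 scale, compared with 2.83 for the 9 loci and -0.05 over all miRNA features. The higher ones included the neuronal Mir124-1, Mir124-2 and Mir124-3 at 3.52, 3.56 and 3.53, which were counted singly, and Mir326 at 3.16. From P10 to P15 none of the 22 was at least 2-fold higher and 1 was lower, Mir136 at -1.12. The shares over all miRNA features were 12.1% and 27.1%. The median of the list was -0.11, against -0.27 over all miRNA features. From P15 to P21, 3 were higher, namely Mir326 at 2.58, Mir329 at 1.11 and Mir136 at 1.10, and 1 was lower, Mir153 at -1.83. Of all miRNA features, 32.4% were higher and 11.0% lower over this step.

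Of the 5 photoreceptor and light-regulated miRNAs listed, 4 were found, namely Mir183, Mir96, Mir204 and Mir211. This list overlaps with the markers above, where Mir204 and Mir211 stood for the pigment epithelium and Mir183 and Mir96 for photoreceptors. All 4 were at least 2-fold higher at P21 than at P1, with a median of 2.38, against 31.5% of all miRNA features. From P10 to P15 Mir211 passed the limit at 1.19, as did 12.1% of all miRNA features. Mir183 and Mir96 had differences of -0.39 and -0.63, set beside 1.01 for Mir132 and -0.67 for Mir212. Over the last step Mir96 was lower by more than the limit, at -1.03, and none of the 4 was at least 2-fold higher. The shares over all miRNA features were 11.0% lower and 32.4% higher.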

How the data were processed

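Small RNA of 1 pool of 3 retinal RNA samples per age was sequenced 2 times on the Ion Torrent PGM. The authors trimmed the reads, mapped them to Ensembl noncoding RNAs and estimated levels with Cufflinks, Cuffmerge and Cuffdiff, version 2.2.1.3 in the submitters' processing notes. They deposited FPKM values on the Rnor_6.0 build; the scaling between libraries is not given in the sources used here. The authors' fold changes, test statistics, p-values and q-values were not used, and 0 columns of sample values were left unused. The design allowed for counts, but the values are FPKM and each age has 1 library, so no test was run.

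Levels were compared as log2(FPKM + 1), which understates changes of low features. Alignments were recovered from the steps of low values. All low values under 4 P1 alignments were whole-number sums of 1 step at P1, of 2 steps from P3 to P15 and of 4 steps at P21, within 0.0001 P1 alignments. No step was tied to a sequencing run. For the 12 of 63 member levels that could not be read out, each step was taken to give equal signal. With unequal signal the P21 total could lie between 446017 and 1779858. PCR copies are not independent molecules. On simulated libraries for all 5491 features, the 95% interval held the true change for 90.0% of 200 changed features in libraries like P10 and P15. In libraries like P1 and P21 it was 93.5%, so the intervals were slightly narrow in this setting. The simulation gave every read set the same spread and no offset between sets. The measured spread per set was 0.25 at P7 and 0.93 at P3 on the log2 scale. For P1 and P21 the spread was assumed, and the simulated one was close to it. The simulation therefore checks the calculation and cannot check the assumed spread.

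The named miRNAs were all loci matching the rule, their sums, and the 5 features nearest in profile; the nearest of each are given. The members and lists were chosen with earlier results of these data known. Mature sequences and the names of host genes came from RefSeq (GRCr8). Alternatives were scaling by TMM (trimming 30% of ratios and 5% of levels), by median of ratios and to the miRNA total, pseudocounts of 0.1 and 10, other filters, summed loci and leaving out each age. Added after seeing the data were the scalings of the steps between consecutive ages, counting error alone and single read sets. A background of at least 20 alignments and its share beyond 95% intervals were added then too. The read sets are unlabelled, so none was tied between ages, and the text compares only the order of their parts at P10 and P15. Python 3.11.15, numpy 2.4.6, pandas 2.3.3 and matplotlib 3.10.9 were used.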

Additional observations from a re-analysis of the deposited data

How the results depend on the processing

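Relative to P21, scaling to the miRNA total raised all miRNAs by 0.63 at P1, 0.24 at P10 and 0.48 at P15 on the log2 scale. With it 1 locus, Mir212, was at least 2-fold lower at P21 than at P1, at -1.52 (95% interval -2.70 to -0.33), 1 locus, again Mir212, was below all earlier ages at both P15 and P21, against 43.6% and 26.6% of all miRNA features, and the interval of Mir137 from P1 to P21 included 0, at 0.68 (95% interval -0.52 to 1.88). From P10 to P15, 4 loci were at least 2-fold higher with scaling to the miRNA total, 4 with median-of-ratios scaling and 4 with TMM scaling, against 14.7%, 14.7% and 20.1% of all miRNA features. The intervals of Mir129-1 and Mir129-2 excluded 0 under all 3 scalings, and those of Mir132, 0.15 to 2.75, and Mir137, 0.15 to 2.44, under TMM scaling. The interval of Mir137 from P15 to P21 lay below 0 with scaling to the miRNA total, as did 15.4% of the miRNA features with at least 20 alignments on average. From P5 to P7 the interval of Mir212 lay above 0 under all 3 scalings. That of Mir138-2 did so by the median of ratios and with TMM, and those of Mir132 and Mir138-1 with TMM. The shares of such features above 0 were 4.34% with the miRNA total, 10.4% by the median of ratios and 14.5% with TMM. The cause of these shifts was not tested. With loci of 1 mature name summed, 1 member, Mir132, was at least 2-fold higher from P10 to P15, since the summed mir-129 loci were at 1.96-fold, and 3 were above all earlier ages at P15 and P21. With counting error alone, 8 intervals lay above 0 and 1 below from P1 to P21, against 44.2% and 37.3% of the miRNA features with at least 20 alignments on average, and 4 above 0 and none below from P10 to P15, against 13.9% and 33.0%. Leaving out an age can move the age of a highest or lowest level only where that age held it. Under another scaling it moved in 10 cases, all for the mir-128 loci, and stayed in 44. No paired analysis was possible because each age has 1 sample. Depth limits Mir132, Mir129-1 and Mir212 most, with as few as 11, 10 and 20 alignments.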
